A study of Rattus norvegicus with 12 samples.

Results

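The response of neonatal rat cardiac myocytes to doxorubicin (Dox) was examined in cells that carried a non-silencing control siRNA (NS). The comparison set 3 arrays after 8 h in 1 µM Dox against 3 arrays at 0 h, paired by the number that the labels give each biological replicate, and so used 6 of the 12 arrays of the series for its values. The other 6 arrays, of cells with an siRNA against p300 at the same times, entered the estimate of the spread and a comparison of the responses. All 12 cultures came from Sprague Dawley rats, held over 90% myocytes, had bromodeoxyuridine against fibroblast growth and spent 48 h without serum before the drug. Drug and time cannot be told apart, because no untreated culture was kept until 8 h in the arrays compared. Members were all 14506 genes that the annotation of the Affymetrix whole-transcript array names with 1 symbol.

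Dox is an anthracycline used against cancer, and heart damage limits its dose. It intercalates into DNA and traps topoisomerase II on cut DNA, which leads to double-strand breaks and the p53 response, and it can evict histones and disturb transcription. Neonatal cardiac myocytes are a common culture model of its effect on the heart; they still express many genes of the fetal heart and some can enter the cell cycle.

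Cardiac myocyte markers were bright at both times. The 12 cardiac myocyte markers, among them those of myosin, troponin and titin, had mean log2 intensities of 11.55 to 14.17 at 0 h and 11.54 to 14.17 at 8 h. Their summed intensity was 126885 to 130722 on the arrays at 0 h and 126106 to 135463 at 8 h, so the groups overlapped. Of these markers 1 of 12 passed the test and 0 fell: Nppa, the gene of atrial natriuretic peptide, rose by 0.10 (adjusted p = 0.0268), a call that did not hold without the replicate block (adjusted p = 0.118), nor when experiment 1, experiment 3 or any of 3 single arrays was left out. Myh6 changed by -0.10, Tnnt2 by 0.07 and Ttn by -0.03, none of which passed. Over all genes 43.5% passed.

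Markers of other cells were present, some as bright as cardiac ones, and some moved. Mean log2 intensities at 0 h were 8.95 to 13.69 for fibroblast markers and 9.39 to 14.23 for smooth muscle and pericyte markers. Summed intensity of 7 measured endothelial markers was 1596 to 1675 at 0 h and 1257 to 1413 at 8 h, which did not overlap, and 4 of the 7 fell, led by the VEGF receptor gene Kdr (-0.92), while 1 rose. Without experiment 3, or without any of 3 single arrays, 2 of the endothelial markers fell. Fibroblast markers summed to 42111 to 46716 and to 40880 to 45533, smooth muscle and pericyte markers to 38452 to 47437 and to 38056 to 46201, and macrophage and leukocyte markers to 5360 to 6704 and to 5317 to 6366, all with overlap. Of 10 fibroblast markers 1 rose and 2 fell, of 8 smooth muscle and pericyte markers 3 rose and 2 fell, and of 9 macrophage and leukocyte markers 1 rose and 1 fell. All these marker counts stand beside 21.6% of all genes that rose and 21.9% that fell. Several marker calls were fragile: those of Egfl7, C1qb and Ddr2 were lost in 8, 9 and 10 of 17 alternative settings. Erythroid markers (363 to 411, then 478 to 517) and Schwann and neural markers (1342 to 1435, then 1542 to 1654) were higher at 8 h without overlap. Of those measured 1 of 3 and 2 of 4 rose, and without experiment 3, 0 of the latter 4 did. Groups without overlap were common: among all single genes 20.1% lay wholly above at 8 h and 21.2% wholly below. In RNA from a whole culture, fewer cells of a type and less RNA per cell cannot be told apart, and the part of these cells in the results below was not tested.

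After 8 h of Dox a large part of the measured transcriptome differed from 0 h by small amounts and a small part by large amounts, and the large changes were mostly falls. A gene was called when its adjusted p was under 0.05 in limma with the experiment, which is the replicate number, as a block. By that rule 3133 of 14506 genes (21.6%) were higher at 8 h and 3184 (21.9%) were lower, 43.5% in all. The median called rise was 0.31 on the log2 scale and the median called fall was -0.43, against a median standard error (SE) of 0.0785. At least 2-fold higher were 58 genes (0.400%) and at least 2-fold lower 197 genes (1.36%). Of the rises 2 reached 4-fold, and of the falls 12 did.

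All 3 arrays at 8 h lay below all 3 at 0 h for 3072 genes (21.2%) and above them for 2922 (20.1%). Every one of the 197 genes that fell 2-fold had groups that did not overlap, and so had 57 of the 58 that rose 2-fold. The exception was Lig4, which encodes the ligase of DNA end joining and was named here after its values were seen: its log2 intensity was 9.78, 8.59 and 8.86 at 0 h and 10.56, 10.14 and 9.66 at 8 h.

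The 3 experiments gave like responses. Across genes, which are not independent replicates, the changes of experiments 1 and 2 had r = 0.821, those of 1 and 3 had r = 0.858 and those of 2 and 3 had r = 0.827. Experiment 3 leaned further towards falls: 293 genes were at least 2-fold lower and 44 at least 2-fold higher in it, against 169 and 60 in experiment 1 and 210 and 82 in experiment 2. In every single experiment 115 of the 197 large falls and 32 of the 58 large rises passed 2-fold. The count of smaller calls depended on a pair of choices. Without the replicate block 1617 genes were higher and 2375 lower, so 27.5% were called and 40.5% of the calls were rises, against 49.6% with the block. Centring each array on the genes tested moved the change of every gene up by the same amount. The median over all genes went from 0.04 to 0.14. Centring gave 5430 rises and 2459 falls, and made rises 68.8% of the calls. The 2-fold counts were then 75 and 137. Changes are relative to the distribution of each array, which the normalisation makes alike.

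**Figure D1:**
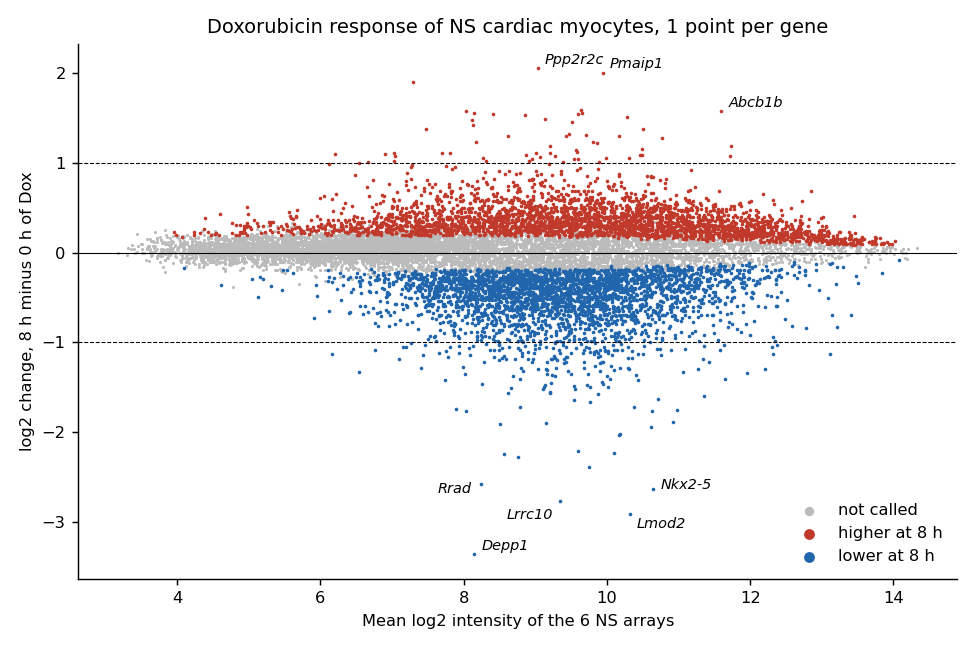
Change after 8 h of Dox in NS cells (vertical axis, log2) against the mean log2 intensity of the 6 NS arrays (horizontal axis), 1 point per gene; red and blue points were called higher and lower at adjusted p under 0.05, and dashed lines mark 2-fold. The 197 falls beyond 2-fold reach -3.36 at Depp1, and the 58 rises reach 2.05 at Ppp2r2c.

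The largest falls included genes of heart development, of the thin filament and of calcium channel control. Depp1 (probe set 10858160), a FOXO target that is linked to autophagy, had log2 intensities of 9.54, 9.89 and 10.05 at 0 h and 6.72, 6.16 and 6.53 at 8 h. All 3 treated arrays lay far below all untreated ones, and the fall was 10.3-fold (-3.36, SE 0.155, adjusted p = 1.05e-09). Lmod2, encoding the leiomodin that elongates cardiac thin filaments, went from 11.57, 12 and 11.77 to 8.58, 8.83 and 9.18 (-2.91, SE 0.101). Lrrc10, a heart-restricted leucine-rich repeat protein, went from 10.39, 10.29 and 11.51 to 7.61, 7.90 and 8.38. Experiment 3 was the highest for Lrrc10 at both times, and its change was -2.78, -2.40 and -3.13 in the 3 experiments (fitted -2.77, SE 0.199, adjusted p = 7.63e-08). Nkx2-5, the homeobox factor of heart formation, went from 11.89, 12 and 11.98 to 9.51, 9.15 and 9.31. Rrad, a GTPase that restrains L-type calcium channels, went from 9.41, 9.58 and 9.60 to 6.92, 6.91 and 7.03, with arrays of a group close to each other.

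Channel and cytoskeleton genes followed. Cacnb2, the beta subunit of the L-type calcium channel, went from 11.03, 11.14 and 11.37 to 9.36, 8.86 and 9.24 (-2.03, SE 0.118, adjusted p = 9.05e-09). Kcnj5, a subunit of the acetylcholine-gated potassium channel of atrial cells, went from 10.42, 10.82 and 10.84 to 8.32, 8.53 and 8.60 (-2.21). Both channel genes thus fell more than 4-fold (4.09-fold and 4.63-fold). Dlc1, deleted in some liver cancers, went from 11.08, 11.08 and 11.42 to 9.12, 9.08 and 9.33 (-2.02, SE 0.0655), and Cdc42ep3, an effector of Cdc42, from 11.43, 11.63 and 11.71 to 9.51, 9.68 and 9.74 (-1.94). Shroom3, which shapes the apical cytoskeleton of epithelia, fell by 2.23.

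Rcan1, Socs2 and Trib2, which restrain signalling, were among the next falls. Rcan1, a calcineurin inhibitor whose own gene calcineurin induces, went from 11.89, 12.19 and 11.53 to 9.97, 10.03 and 9.94 (-1.89, SE 0.0934, adjusted p = 2.36e-09). Its treated arrays lay close together although the untreated ones spread more widely. Socs2, a suppressor of cytokine and growth hormone signalling, went from 11.35, 11.48 and 11.72 to 9.74, 9.71 and 9.81 (-1.76, SE 0.0633), and the pseudokinase gene Trib2 from 11.11, 11.25 and 11.35 to 9.38, 9.57 and 9.59 (-1.72). Irx4, a homeobox factor of the ventricle, fell by 1.75 and Gata5, a zinc finger factor of the early heart, fell by 2.39. Of genes used in mitosis, the kinesin gene Kif4a went from 8.80, 8.96 and 8.52 to 6.81, 7.47 and 6.79 (-1.74), Cdc20, the activator of the anaphase-promoting complex, fell by 1.63 and Ccnf, which encodes cyclin F, fell by 2.27. The remaining genes among the 25 largest falls were A4galt (-2.24), B3galt2 (-1.91), Tmem51 (-1.90), Klhl38 (-1.76), Plpp7 (-1.72), Rab20 (-1.66) and Urgcp (-1.64). Groups without overlap were a condition for being named among these 25. Each of the 25 was called under each of the 17 alternative settings tried.

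The largest rises were smaller than the largest falls. As for the falls, groups without overlap were a condition for being named among the 25 largest rises. Ppp2r2c, which encodes a B subunit of the phosphatase PP2A, had log2 intensities of 7.82, 8.20 and 8.03 at 0 h and 9.94, 10.17 and 10.09 at 8 h, a 4.14-fold rise (2.05, SE 0.0782, adjusted p = 1.49e-10). Pmaip1, encoding the pro-apoptotic BH3 protein NOXA and a target of p53, went from 9.04, 8.91 and 8.87 to 11.09, 11.08 and 10.66 (2.00, SE 0.110). The third experiment gave the smallest rise of Pmaip1, and its lowest treated array was still well above the untreated ones. Paep, named after its values were seen because it lies below the level that the naming rule asks for, went from 6.42, 6.40 and 6.23 to 8.27, 8.61 and 7.88 (1.90, SE 0.165).

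Genes of immune signalling and cell surfaces made up part of the rises. Il1rl2, the receptor for interleukin 36, went from 9.0, 8.88 and 8.65 to 10.50, 10.51 and 10.27 (1.59, SE 0.110). Il6, the interleukin, went from 7.52, 7.55 and 7.17 to 8.83, 9.42 and 8.26 (1.42, SE 0.134, adjusted p = 1.00e-06). The Il6 arrays at 8 h spread more than those of Il1rl2, with experiment 2 highest. Cd80, a costimulatory ligand for T cells, went from 10.24, 10.19 and 9.96 to 11.49, 11.51 and 11.21 (1.27), and Nectin1, an adhesion molecule of adherens junctions, from 9.46, 9.51 and 9.59 to 11.07, 11.03 and 10.98 (1.51, SE 0.0662, adjusted p = 6.84e-10). Dsc3, a desmosomal cadherin, rose by 1.47, and Tfpi2, a secreted protease inhibitor, by 1.23. Fosl1, an AP-1 factor, rose by 1.45.

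Transporters and enzymes made up another part. Abcb1b, encoding a P-glycoprotein that exports Dox, went from 10.71, 10.95 and 10.77 to 12.40, 12.48 and 12.25 (1.57, SE 0.113). Slc27a3, an acyl-CoA synthetase of the fatty acid transport family, went from 9.72, 9.72 and 10.03 to 11.24, 11.13 and 11.23 (1.38), and Slc19a2, a thiamine transporter, from 8.95, 9.17 and 9.04 to 10.37, 10.52 and 10.20 (1.31). Slc4a11 (1.55) and Slc38a3, which carries glutamine (1.23), rose as well. Looking at all 314 solute carrier genes, a list drawn up after these values were seen, 79 rose (25.2%) and 43 fell (13.7%), against 21.6% and 21.9% of all genes. Without experiment 3 the rises numbered 51, without the replicate block 50 rose and 28 fell, and with arrays centred on the genes tested 127 rose and 30 fell. Itpka, an inositol trisphosphate kinase, rose by 1.57, the thyrotropin receptor gene Tshr by 1.54, Syt17 by 1.30, the heat shock protein gene Hspa2 by 1.30 and the imprinted gene Phlda2 by 1.22. The other genes of the 25 were Cfap141 (1.55), Fam167a (1.54), Ankrd13d (1.53), Cib2 (1.49), Fam83h (1.32) and Pinlyp (1.30).

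**Figure D2:**
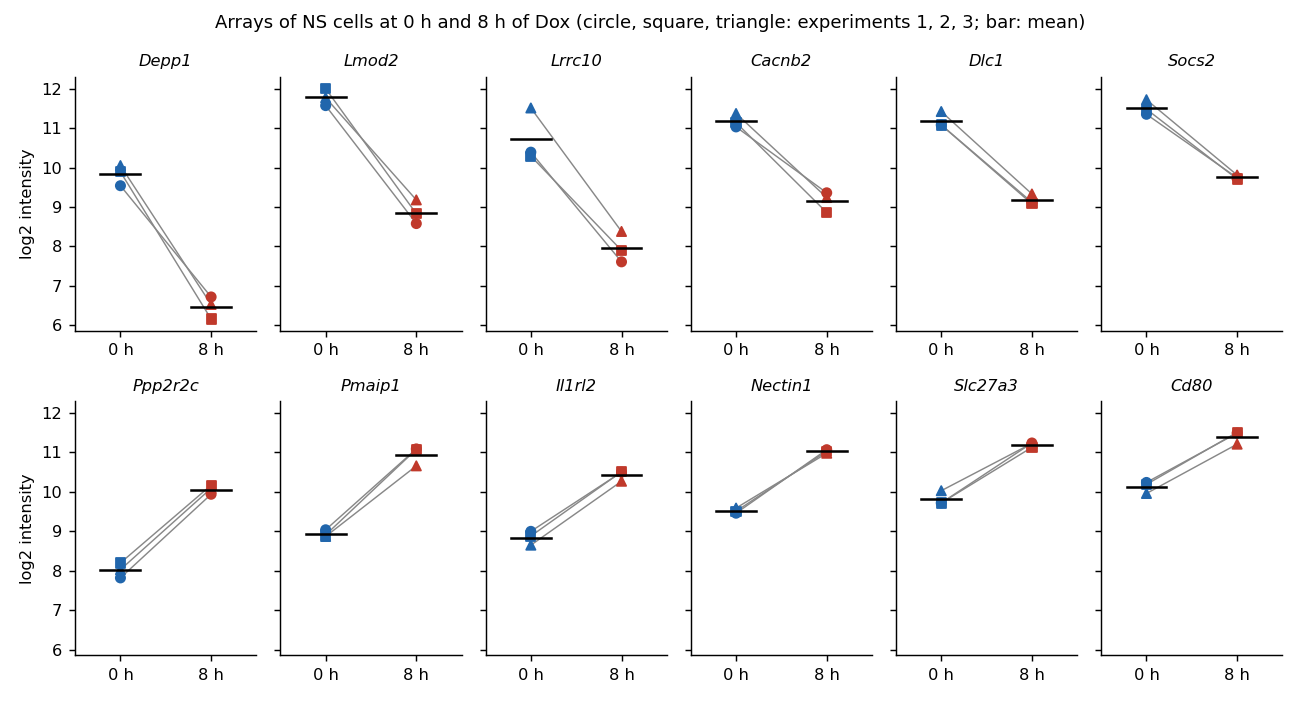
Log2 intensity (vertical axis) of 6 genes that fell and 6 that rose, at 0 h (blue) and 8 h (red) of Dox in NS cells; symbols and grey lines join the arrays of 1 experiment and black bars are means of 3 arrays. The genes were drawn from those chosen for groups that do not overlap; the mean change goes from -3.36 for Depp1 to 2.05 for Ppp2r2c.

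The promoters of 2 strong falls and 2 strong rises are shown. Of motifs often named for stress signalling, the cyclic AMP response element occurs in a fall (Rcan1) and a rise (Il6). Among the promoters shown, the NF-kB motif is in those of the rises and the AP-1 motif in that of Rcan1. Over all promoters, counted below, both motifs occur in rises and in falls. Each is the 250 bases before the start of the gene in RefSeq, build GRCr8, written 5′ to 3′ on the strand of the gene, with capitals for the TATA box, the cyclic AMP response element, the AP-1 motif, the NF-kB motif and the p53 half-site on either strand. Matches to GGGCGG and to CCAAT, which are also counted below, are left in lower case. Lrrc10 (chr7:54572685-54572934, plus strand) has a TATAAA from 30 to 25 bases before its start. Rcan1 (chr11:45118237-45118486, minus strand) has the cyclic AMP response element TGACGTCA, the AP-1 motif TGANTCA and TATAAA on both strands. Il6 (chr4:5894576-5894825, minus strand) has TGACGTCA from 162 to 155 and an NF-kB motif from 68 to 59 bases before the start. Pmaip1 (chr18:62255720-62255969, plus strand) has an NF-kB motif from 41 to 32 bases before the start.
Lrrc10: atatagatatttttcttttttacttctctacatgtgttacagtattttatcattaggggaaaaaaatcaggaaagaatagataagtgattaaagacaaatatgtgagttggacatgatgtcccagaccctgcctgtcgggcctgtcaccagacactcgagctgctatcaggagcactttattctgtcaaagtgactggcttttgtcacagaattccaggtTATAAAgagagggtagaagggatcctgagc
Rcan1: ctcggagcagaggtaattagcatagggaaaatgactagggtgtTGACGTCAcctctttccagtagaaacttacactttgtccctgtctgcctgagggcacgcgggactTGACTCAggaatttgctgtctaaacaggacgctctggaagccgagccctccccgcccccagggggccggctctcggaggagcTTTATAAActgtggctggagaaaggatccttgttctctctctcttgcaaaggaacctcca
Il6: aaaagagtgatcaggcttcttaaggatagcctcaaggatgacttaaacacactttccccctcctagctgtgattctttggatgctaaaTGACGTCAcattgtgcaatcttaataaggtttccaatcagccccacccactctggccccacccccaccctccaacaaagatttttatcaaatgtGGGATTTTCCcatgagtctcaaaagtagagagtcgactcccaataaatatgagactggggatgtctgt
Pmaip1: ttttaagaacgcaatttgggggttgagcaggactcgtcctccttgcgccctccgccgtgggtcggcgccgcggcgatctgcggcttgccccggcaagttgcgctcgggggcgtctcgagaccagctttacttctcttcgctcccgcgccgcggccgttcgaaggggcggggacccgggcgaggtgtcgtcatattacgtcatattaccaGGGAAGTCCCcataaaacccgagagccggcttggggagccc

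Motifs were counted on both strands in the same stretch of 11950 promoters, which included 44 of the genes that rose 2-fold and 150 of those that fell 2-fold. TATAAA was in 2.27% of the promoters of the rises, 10.7% of the falls and 11.2% of all, or 6.40% of those of genes above the median level. The NF-kB motif was in 13.6% of the rises (6 promoters), 5.33% of the falls (8) and 3.96% of all. TGACGTCA was in 6.82% (3), 2.67% (4) and 2.28%, and TGANTCA in 9.09% (4), 4.67% (7) and 5.48%. A p53 half-site was in 9.09% of the rises (4), 3.33% of the falls (5) and 6.26% of all. GGGCGG was in 72.7%, 62.7% and 47.3%, with 63.0% above the median level, and CCAAT in 47.7%, 37.3% and 35.6%. Above the median level the NF-kB motif was in 4.19%, TGACGTCA in 2.86%, TGANTCA in 4.23%, a p53 half-site in 5.94% and CCAAT in 36.6%. These are counts of letters, with few promoters among the rises, and a match is not shown to be bound.

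Gene families differed in the shares of their members that rose and fell. In the paragraphs that follow, counts of called members stand beside the shares for all genes, 21.6% higher and 21.9% lower, and medians beside the median of 0.04 over all genes. Among the 7253 genes above the median level, 30.9% were higher and 31.9% lower, with a median of 0.01. In the brightest eighth of all genes 44.5% were higher and 18.0% lower, with a median of 0.11. The lists were not matched to all genes for level.

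**Figure D3:**
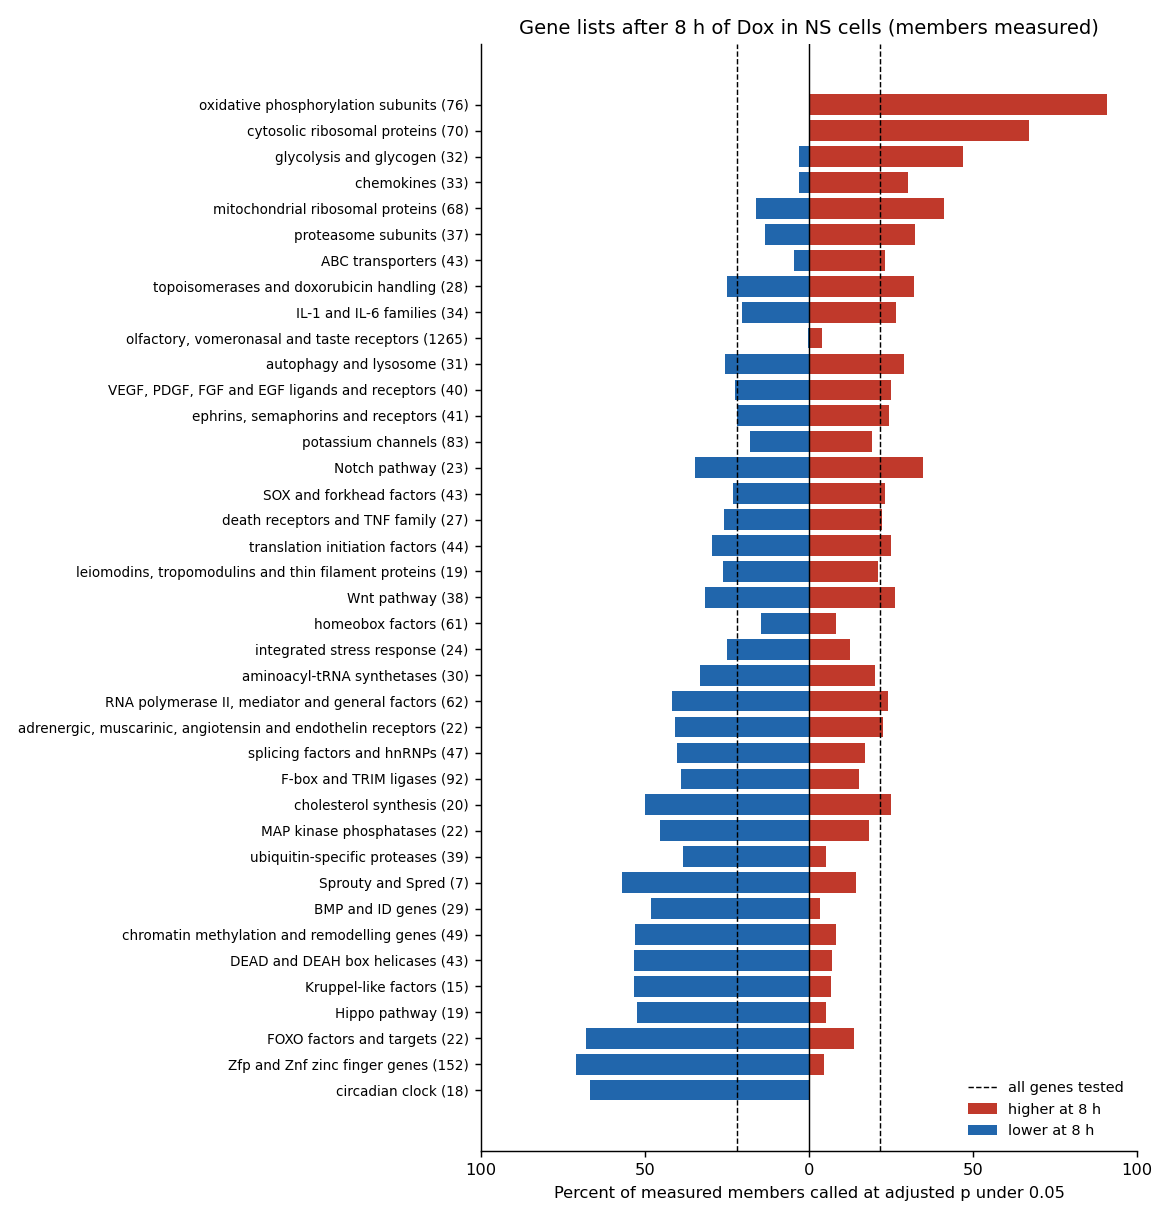
Percent of the measured members of 39 gene lists that were called higher (red, to the right) or lower (blue, to the left) after 8 h of Dox in NS cells; the number measured is in parentheses and dashed lines mark the shares over all genes, 21.6% and 21.9%. Oxidative phosphorylation subunits (69 of 76 higher, 0 lower) and circadian clock genes (12 of 18 lower, 0 higher) are at the ends.

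Subunits of the respiratory chain rose together by small amounts. Of 76 nuclear-encoded oxidative phosphorylation subunits 69 rose and 0 fell, the median change was 0.22, and it was 0.19, 0.21 and 0.29 in the 3 experiments; 72 of the 76 were above 0 in every experiment. By complex, and with the split drawn up after values were seen, 30 of 33 rose in complex I, 4 of 4 in complex II, 6 of 7 in complex III, 14 of 16 in complex IV and 15 of 16 in complex V, the ATP synthase. Atp5me, of the ATP synthase, had log2 intensities of 9.24, 9.26 and 9.51 at 0 h and 9.73, 9.99 and 10.35 at 8 h (0.69, SE 0.0926). Ndufa1, of complex I, went from 9.98, 10.09 and 10.22 to 10.40, 10.88 and 10.83 (0.61, SE 0.0835), and Ndufb3 rose by 0.55. These steps were near the spread between experiments, and the pairing by experiment set how many passed: without the block 24 of the 76 rose and 0 fell, with 10 of the rises in complex I. Leaving out single arrays or experiments gave 47 to 70 rises; without experiment 3, 18 of the 33 complex I genes and 2 of the 4 complex II genes rose, and the latter count was also 2 without the third array of either time, 1 with the block as a random effect and 0 without the block. Uqcrb, of complex III, did not pass (0.07).

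Genes of the cytosolic ribosome were also called in 1 direction. Of 70 measured 47 rose, 0 fell and 23 were not called, with a median of 0.15 that was 0.07, 0.14 and 0.23 in the 3 experiments. The rises were 17 without the replicate block, 16 without experiment 3, 22 without the third array at 0 h, 23 without the second array at 8 h and 27 without a variance trend, and 69 with arrays centred on the genes tested. Rps27, of the small subunit, went from 7.22, 6.98 and 6.97 to 7.53, 7.40 and 7.61 (0.46, SE 0.100, adjusted p = 0.00168), and Rps15a (0.42), Rps24 (0.38) and Rps13 (0.37) rose. Ribosomal protein genes have many processed copies, so probe sets could read more than 1 locus. Mitochondrial ribosomal proteins were mixed: of 68, 28 rose, 11 fell and 29 were not called (median 0.13), or 42 and 6 rose and fell with arrays centred on the genes tested. The rises were 6 without the block and 16 without experiment 3; the falls were 5 without the block, 6 without experiment 1, 7 without experiment 2 and 7 without the first array at 0 h. Mrpl54 (0.47) and Mrps23 (0.45) rose, while Mrpl15 fell from 10.01, 10.35 and 10.60 to 9.17, 9.36 and 9.45 (-0.99, SE 0.0770).

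Glycolysis genes also leaned upward, with 15 of 32 higher (46.9%) and 1 lower, and a median of 0.14. That share and median were near the 44.5% and 0.11 of the brightest eighth of all genes. Without the block 3 rose and 0 fell, and 9 rose without experiment 1. Aldoc, of aldolase C, went from 10.70, 10.81 and 11.73 to 11.40, 11.49 and 12.17 (0.61, SE 0.0795, adjusted p = 2.06e-05). Its groups overlapped although it rose in each experiment, and without the block its adjusted p was 0.152.

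Zinc finger genes, taken by the names Zfp and Znf, fell as a large block. Of 152 genes named Zfp or Znf 108 fell (71.1%) and 7 rose, and the median of -0.37 broke down by experiment into -0.39, -0.28 and -0.45; 120 of the 152 were below 0 in every experiment. Leaving out arrays or experiments gave 84 to 102 falls, and fitting without the block gave 87. Zfp608 went from 10.66, 10.59 and 10.69 to 9.36, 9.11 and 9.14 (-1.44, SE 0.0735, adjusted p = 2.88e-09). Zfp280b, whose untreated arrays spread more, went from 8.54, 9.35 and 9.06 to 7.51, 7.46 and 7.58 (-1.46, SE 0.122). Zfp763 (-1.13) and Zfp799 (-1.09) fell, and Zfp365 (0.63) and Zfp503 (0.49) rose. Of 15 Kruppel-like factors 8 fell, among them Klf6 (-0.73), Klf11 (-0.63) and Klf3 (-0.60), 1 rose, and Klf1 (0.18) did not pass; with arrays centred on the genes tested 5 fell and 3 rose.

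Not all families of transcription factors did so. SOX and forkhead factors had 10 of 43 higher and 10 lower (23.3% each), near the shares of all genes, and 6 were higher without experiment 1. Foxm1, a factor of mitotic genes (-0.90), and Sox4 (-0.72) were among the falls and Foxo4 (0.49) among the rises. Of 61 homeobox factors 9 fell and 5 rose (8 without the second array at 8 h, and 22 with arrays centred on the genes tested), and their median was 0.08. Beside Nkx2-5 (-2.63) and Irx4 (-1.75), Meis1 (-0.65) and Irx3 (-0.63) fell. Hoxa5, which patterns the trunk, rose from 6.54, 6.43 and 6.60 to 7.56, 7.58 and 7.47 (1.02, SE 0.0761), and Hoxd13 rose from 7.32, 7.39 and 7.40 to 8.08, 8.60 and 8.22 (0.93), both from low intensities.

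Chromatin genes fell more often than they rose. Of 49 genes of histone methylation, demethylation and nucleosome remodelling 26 fell and 4 rose, with a median of -0.25; the rises were 1 without experiment 2 and 2 without the second array at 0 h. Smarcad1, a remodeller used in DNA end resection, went from 10.07, 9.61 and 9.82 to 8.84, 8.88 and 8.34 (-1.15, SE 0.136), and Setd2, the methyltransferase for lysine 36 of histone H3, from 10.26, 9.77 and 10.05 to 9.32, 9.03 and 8.84 (-0.96). The remodeller genes Chd2 (-0.99) and Smarcd1 (-0.96) fell too, and Kdm4d rose by 0.44. Ep300, the siRNA target of the other cells, fell here from 11.16, 11.01 and 11.14 to 10.86, 10.72 and 10.72 (-0.34, SE 0.0736, adjusted p = 0.00153), which did not pass without the block (adjusted p = 0.0641).

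In the transcription and RNA processing lists, DEAD and DEAH box helicases, which unwind RNA, fell in 23 of 43 cases and rose in 3 (median -0.24), with Dhx32 going from 9.74, 10.02 and 10.02 to 8.43, 8.65 and 8.83 (-1.29, SE 0.0744). Splicing factors and hnRNPs fell in 19 of 47 cases and rose in 8 (median -0.12), but 15 fell and 15 rose with arrays centred on the genes tested; Srsf1 went from 10.16, 10.10 and 10.19 to 9.31, 9.44 and 9.30 (-0.80), and Hnrnph1 rose by 0.47. Of 62 genes of RNA polymerase II, the mediator complex and general factors 26 fell and 15 rose, 20 and 10 without the block or 21 and 19 with arrays centred on the genes tested, when the median of -0.09 became 0.01. Within that list Taf8, of TFIID, fell from 9.55, 9.57 and 9.61 to 8.63, 8.58 and 8.46 (-1.02), while Gtf2b, which encodes TFIIB, rose from 9.22, 9.57 and 9.44 to 10.28, 10.45 and 10.28 (0.93, SE 0.0882).

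Among translation factors the balance of rises and falls depended on the scaling. Of 44 translation initiation factor genes 13 fell and 11 rose, among them Eif2b4, of the exchange factor of eIF2 (-0.79), and Eif1ax (0.49); with arrays centred on the genes tested 8 fell and 21 rose, without the block 7 fell and 2 rose, 8 fell without experiment 1 or 3, and 7 rose without experiment 2 or 3. Aminoacyl-tRNA synthetases fell in 10 of 30 cases and rose in 6, with Iars1 (-0.81) and Aars1 (-0.48) among the falls; 6 fell without experiment 2 or without the second array at 8 h, 3 rose without the block, and with arrays centred on the genes tested 6 fell, 9 rose and the median of -0.08 became 0.02. Of 24 genes of the integrated stress response, which lowers translation through eIF2, 3 rose and 6 fell, including its effector Atf4 (-0.48) and the phosphatase subunit Ppp1r15b (-0.59). With arrays centred on the genes tested these were 7 and 4, without the block 0 and 3, without experiment 3 the falls were 2, and without experiment 1 or the third array at 8 h they were 3.

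Protein degradation genes differed by kind. Of 37 proteasome subunits 12 rose and 5 fell; 6 rose without experiment 3, 7 with the block as a random effect, 3 without the block and 21 with arrays centred on the genes tested. Split by particle after values were seen, 10 of 17 genes of the 20S core rose and 0 fell (median 0.16), against 2 of 20 rising and 5 falling in the regulatory particle (median -0.08). The core count was 4 without experiment 3, 5 without the third array at 0 h, 6 without experiment 2 or without the second or the third array at 8 h, 5 with the block as a random effect and 2 without the block. Psmb9, a subunit of the immunoproteasome, went from 10.23, 10.74 and 10.69 to 10.81, 11.32 and 11.11 (0.53, SE 0.0635), and Psmd5, a chaperone of the regulatory particle, fell from 9.13, 9.47 and 9.33 to 8.48, 8.83 and 8.79 (-0.61). Ubiquitin-specific proteases fell in 15 of 39 cases and rose in 2, led by Usp2 (-1.14) and Usp10, which deubiquitinates p53 (-0.96); with arrays centred on the genes tested 11 fell, 9 rose and the median of -0.10 became 0.00.

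F-box and TRIM ligases fell in 36 of 92 cases and rose in 14, or 8 without experiment 3, without the second array at 0 h, without the first array at 8 h or without the block. With centring on the genes tested 32 fell, 24 rose and their median of -0.09 became 0.02. The falls included both classic muscle atrophy ligases: Fbxo32, atrogin-1, went from 10.70, 10.18 and 11.16 to 9.44, 8.99 and 9.21 (-1.46, SE 0.125), and Trim63, MuRF1, from 9.90, 9.82 and 10.39 to 8.67, 8.61 and 9.19 (-1.22, SE 0.111, adjusted p = 6.98e-07). Fbxo5, an inhibitor of the anaphase-promoting complex, fell by 1.42, and Fbxw9 rose by 1.02. Autophagy and lysosome genes were split, with 9 of 31 higher (29.0%) and 8 lower (25.8%), beside 21.6% and 21.9% of all genes. Becn1 (0.49) and Map1lc3a (0.54) rose, and the lysosomal regulator genes Tfeb (-0.54) and Mitf (-0.79) fell. Without the block 4 rose.

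FOXO factors and their targets fell in 15 of 22 measured cases and rose in 3, with a median of -0.43 that was -0.48, -0.42 and -0.55 in the 3 experiments. FOXO factors are transcription factors that insulin signalling keeps out of the nucleus, and in muscle they drive atrophy genes. Depp1 (-3.36), Trib2 (-1.72), Fbxo32 (-1.46) and Trim63 (-1.22) were the largest falls, Foxo4 rose from 8.51, 8.71 and 8.78 to 9.02, 9.16 and 9.31 (0.49), Bnip3, of mitophagy, rose by 0.48, and Pdk4 did not pass (-0.25). Circadian clock genes fell in 12 of 18 measured cases and rose in 0, with a median of -0.31. Cry2, a repressor of the clock, went from 10.54, 10.50 and 10.48 to 8.88, 9.10 and 9.04 (-1.50, SE 0.0849, adjusted p = 7.55e-09). Bhlhe41 (-1.47), Per2 (-0.82) and Nr1d2 (-0.71) fell as well, and Bmal1, the activator that they oppose, did not pass (0.20, adjusted p = 0.0553). Each culture time was sampled once in an experiment, so the clock phase was not measured.

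Receptors for the signals that set heart rate and contraction fell more than they rose. Of 22 measured adrenergic, muscarinic, angiotensin and endothelin receptors and their regulators 9 fell and 5 rose (3 without experiment 3 or the third array at 8 h or with the block as a random effect, 2 without the block). Adra1a, an alpha-1 adrenergic receptor of myocytes, went from 9.94, 9.61 and 9.96 to 8.37, 8.39 and 8.69 (-1.35, SE 0.0959). Chrm2, the muscarinic receptor of the heart, went from 11.71, 11.69 and 12.22 to 10.53, 11.03 and 10.93 (-1.04, SE 0.0994, adjusted p = 1.07e-06), and Adrb1, the main beta receptor of the heart, from 8.87, 9.16 and 9.14 to 8.55, 8.17 and 8.59 (-0.62). Adra2a (0.86) and Adrb3 (0.55) rose. Potassium channel genes were balanced at 16 rises (19.3%) and 15 falls (18.1%) of 83, near the shares of all genes. The rises were 10 without experiment 1, and without the block 10 rose and 9 fell. All 4 that changed 2-fold fell: Kcnj5, Kcnj11 of the ATP-sensitive channel (-1.35), Kcne4 (-1.16) and the background channel gene Kcnk3 (-1.12).

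In the lists of growth factor signalling, receptors and inhibitors both appeared among the falls. Of 29 measured genes of bone morphogenetic protein (BMP) signalling, its SMADs and the ID factors 14 fell and 1 rose, with a median of -0.16. The receptor gene Bmpr1a went from 11.67, 11.50 and 11.68 to 10.58, 10.75 and 10.31 (-1.07, SE 0.0871), the SMAD gene Smad9 fell by 1.30, and the inhibitors Smad6 (10.74, 10.92 and 10.63 to 9.53, 9.42 and 9.39, -1.31) and Bambi (-1.0) fell. Chrd, the secreted BMP antagonist chordin, rose from 8.67, 8.82 and 8.62 to 9.65, 9.73 and 9.70 (0.99, SE 0.0793). Of the 22 genes listed as MAP kinase phosphatases, which were taken more widely, 10 fell and 4 rose. Among the falls were Dusp8 at -1.57, Dusp11, which acts on RNA, at -1.29 and Dusp1 at -0.92, and Dusp9 (0.59) was among the rises. Of 7 Sprouty and Spred genes, inhibitors of receptor tyrosine kinase signalling, 4 fell, led by Spry2 (-1.05) and Spry1 (-0.89), and Spry4 rose from 10.68, 10.78 and 10.59 to 11.34, 11.16 and 11.23 (0.56).

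The Hippo list, whose YAP and TAZ targets respond to tension, fell in 10 of 19 measured cases and rose in 1 (median -0.15), or 7 and 5 with arrays centred on the genes tested. Ccn2, connective tissue growth factor, went from 12.83, 12.79 and 12.26 to 11.46, 11.34 and 11.07 (-1.34), Amotl2 fell by 0.96 and Ankrd1, a cardiac stretch-response gene, fell by 0.70. Notch genes had 8 of 23 measured members higher and 8 lower. The receptor gene Notch1 rose from 9.46, 9.35 and 9.34 to 10.21, 10.13 and 10.13 (0.77, SE 0.0608) and the ligand gene Dll1 by 0.49. Of target genes, Nrarp rose by 0.72, and Hey2, which restrains atrial genes in the ventricle (9.91, 10.13 and 10.27 to 8.83, 8.75 and 8.79, -1.32), and Hes1 (-1.22) fell. The Notch rises were 5 without experiment 1 or 3 or without the block. Endothelial markers, which fell as given above, mark cells that use Notch and VEGF receptors too, and their part here was not tested.

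Wnt genes fell in 12 of 38 measured cases and rose in 10, and the rises were 5 without experiment 2, 6 without the second array of either time and 3 without the block; the median of -0.06 became 0.05 with arrays centred on the genes tested. The Frizzled receptor genes Fzd1 (11.72, 11.87 and 12.21 to 10.56, 10.78 and 10.91, -1.18), Fzd2 (-1.0) and Fzd8 (-0.65) fell, and the ligand gene Wnt4 rose by 0.48. Of 40 ligands and receptors of the VEGF, PDGF, FGF and EGF families 10 rose and 9 fell, 6 and 7 without the block, or 21 and 7 with arrays centred on the genes tested. Fgf16, a fibroblast growth factor made by heart muscle, went from 9.18, 9.42 and 9.97 to 8.28, 8.47 and 8.63 (-1.07), Fgf18 fell by 1.08 and Pdgfrb fell by 0.85, while Pgf (0.68) and Ereg (0.75) rose. Ephrins, semaphorins and their receptors had 10 of 41 higher and 9 lower, with Epha2, a p53-responsive receptor, rising from 8.99, 9.25 and 8.77 to 10.14, 10.16 and 10.11 (1.14). Those rises were 5 without the third array at 8 h, 6 without experiment 3, 4 without the block and 17 with arrays centred on the genes tested.

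Genes of the IL-1 and IL-6 families were called at shares near those of all genes. Of 34 measured 9 rose (26.5%) and 7 fell (20.6%), or 15 and 4 with arrays centred on the genes tested; the falls were 4 without experiment 3, the third array at 0 h or the first array at 8 h, and 3 without the block. Il1rl2 (1.59), Il6 (1.42), Lif (9.25, 9.19 and 9.03 to 10.12, 10.23 and 9.94, 0.94) and Clcf1 (0.57) rose. The suppressors Socs2 (-1.76) and Socs3 (-0.69) and the transcription factor gene Stat3 (12.52, 12.68 and 12.69 to 12.08, 12.15 and 12.16, -0.50) fell. Of 33 chemokines 10 rose and 1 fell (5 and 0 without the block). Cxcl1, a neutrophil attractant, went from 8.16, 8.29 and 8.09 to 8.62, 10.01 and 8.65 (0.91, SE 0.212), with experiment 2 far above the others at 8 h, and Cxcl2 rose by 0.81.

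Death receptor and TNF family genes had 6 of 27 measured members higher and 7 lower. Ripk3, the kinase of necroptosis, rose from 8.55, 8.94 and 8.45 to 9.59, 10.11 and 9.59 (1.11, SE 0.0863), Tnfsf4, the ligand of OX40, rose by 1.01, Tnfrsf21 by 0.70 and the death receptor gene Fas by 0.49. The adaptor genes Traf2 (-0.79), Fadd (-0.68) and Tradd (-0.57), through which death receptors signal, fell, and so did a receptor gene, Tnfrsf12a (-0.54). The shares of the list, 22.2% higher and 25.9% lower, were near those of all genes.

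Among genes that handle Dox or are its targets 9 of 28 measured rose and 7 fell; the falls were 4 without experiment 1, the first array at 0 h or the block. Abcb1b (1.57) and its close relative Abcb1a (7.19, 7.57 and 7.07 to 8.36, 8.48 and 7.87, 0.96) rose, and since the sequences of both genes are alike, probe sets may read both. Top2a, the topoisomerase II of dividing cells, went from 10.61, 10.73 and 10.37 to 9.89, 10.37 and 9.90 (-0.51, SE 0.0832), where the groups met at 10.37. Por, the cytochrome P450 reductase that can reduce Dox to a radical (-0.47), and Akr1c14 (-0.74) fell, and the transferrin receptor gene Tfrc rose by 0.45. In the wider list of ABC transporters 10 of 43 rose (23.3%, near the share of all genes) and 2 fell (4.65%). With arrays centred on the genes tested these were 19 and 1. Abca2 changed by 0.68 and Abcf3 by -0.81.

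Cholesterol synthesis genes fell in 10 of 20 measured cases and rose in 5 (median -0.17); without the block 7 fell and 2 rose, with arrays centred on the genes tested 6 fell and 7 rose, and leaving out experiment 3 gave 2 rises, with 3 without experiment 1 or any of 3 single arrays. Msmo1, a sterol oxidase, went from 11.58, 11.96 and 11.62 to 10.30, 10.49 and 10.38 (-1.33, SE 0.0701), and Dhcr7, of the last step, fell by 1.12. Idi1, of an early step, rose from 9.54, 9.93 and 9.33 to 10.28, 10.66 and 10.27 (0.80), and Tm7sf2 by 0.78, so enzymes of 1 pathway moved apart. Thin filament genes did not follow Lmod2. Of 19 measured leiomodins, tropomodulins and related proteins 5 fell (26.3%) and 4 rose (21.1%), near the shares of all genes. Their median was 0.00. Only Lmod2 and Lrrc10 of these fell 2-fold, and Tnni3 (0.10) did not pass. The falls were 2 without experiment 1, 3 without experiment 3, the first array of either time, the third array at 8 h or the block, and the rises were 2 without experiment 3 and 0 without the block; with arrays centred on the genes tested 3 fell and 9 rose.

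Receptors of smell, pheromones and taste, which heart muscle is not known for, served as a family of mostly dim genes. Of 1265 such genes 49 rose (3.87%) and 6 fell (0.474%), far below the shares of all genes, with a median of 0.04. The rises were 25 without the block, 280 with arrays centred on the genes tested, and 23 without experiment 3, 28 without the third array at 8 h or 31 without the second or the third array at 0 h; the falls were 2 without the block, 2 without the second array at 8 h and 3 without the third array at 0 h. Vom1r73, a vomeronasal receptor gene, went from 5.65, 5.53 and 5.72 to 6.64, 6.79 and 6.45 (0.99, SE 0.159), and Tas1r3, a taste receptor subunit, rose by 0.63. Vomeronasal receptors have close copies, so the source of that signal is uncertain.

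The share of rises and falls differed with the intensity of a gene and with its span on the genome. Genes were put in 8 equal groups by mean level over the 12 arrays. In the dimmest group 4.41% were called higher and 0.606% lower; in the group from 8.57 to 9.34, 22.7% were higher and 39.2% lower, with a median of -0.09; in the brightest, from 11.04 to 14.32, 44.5% were higher and 18.0% lower, with a median of 0.11. Large falls were most frequent in the group from 9.34 to 10.09, where 3.31% fell 2-fold.

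Span, taken from the RefSeq table of GRCr8 for 7241 of the 7253 genes above the median level, was compared in the same way. In the shortest eighth, 0.125 to 5.33 kb, 43.3% were higher and 24.9% lower (median 0.11). In the longest eighth, 99.8 to 2368 kb, 19.9% were higher and 40.9% lower (median -0.09). The medians fell at each step between, and Spearman's rank correlation over these genes was -0.145, and -0.145, -0.0591 and -0.212 in experiments 1, 2 and 3, given as a description because genes share arrays. These genes were also parted by level into a brighter and a dimmer set of equal size and each set into 4 groups of rising span: the medians were 0.14, 0.10, 0.05 and -0.04 in the brighter set, and 0.01, -0.10, -0.09 and -0.14 in the dimmer one. Centring arrays on the genes tested moves all changes alike and so could not alter this order. The medians were then 0.22 for the shortest and 0.01 for the longest eighth, with neither below 0. The 2-fold falls had a median span of 21.9 kb, the 2-fold rises 13.4 kb and all genes above the median level 23.6 kb. By eighths, 2-fold falls were most frequent among the longest genes (3.09%, against 1.66% to 2.32% in the other groups), where 0 genes rose 2-fold.

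**Figure D4:**
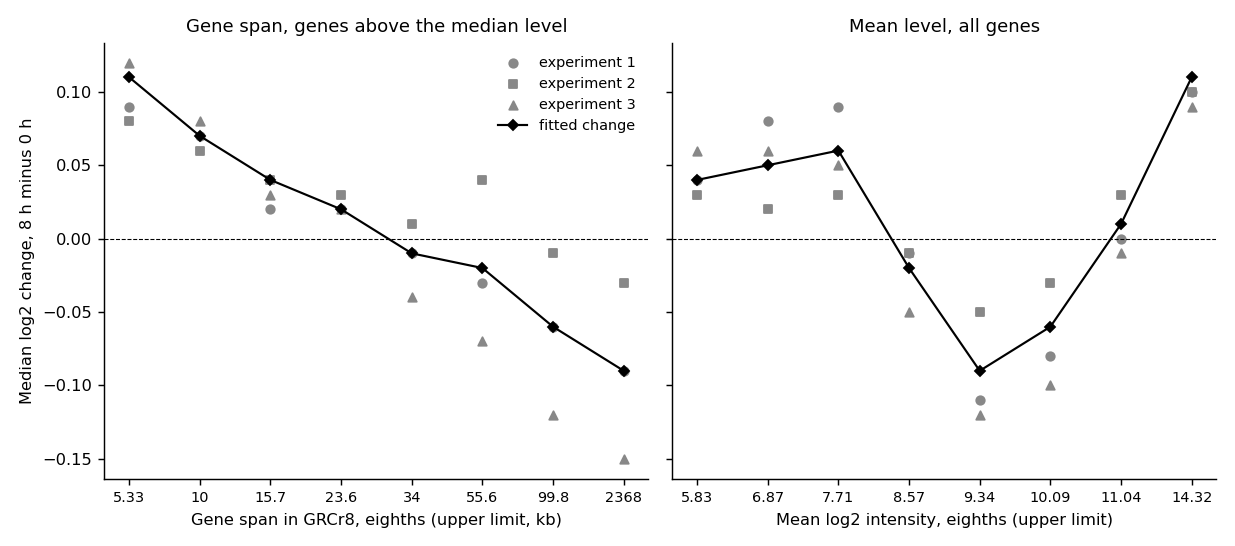
Median log2 change after 8 h of Dox in NS cells (vertical axis) in eighths of gene span for genes above the median level (left) and in eighths of mean intensity for all genes (right); black diamonds are the fitted changes and grey symbols the 3 experiments. By span the fitted medians go from 0.11 to -0.09, and by level they are lowest at -0.09 in the fifth group and highest at 0.11 in the brightest.

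The same drug response was measured in the cells with the p300 siRNA, on arrays that share no culture with the NS arrays but come from the same experiments. There 3329 genes (22.9%) were called higher and 3310 (22.8%) lower. All 255 genes that changed 2-fold in NS cells were called in the same direction in p300 siRNA cells, and r across all genes was 0.946. The difference of the responses was called for 0 of 14506 genes by limma (lowest adjusted p = 0.902), and 639 genes (4.41%) had an unadjusted p under 0.05. The median SE of that difference was 0.111, so differences of small size were not measurable with 3 arrays a group.

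The 5 genes with the smallest p for the difference are given as values, since none passed. B3galt2, a galactosyltransferase gene, went from 9.46, 9.44 and 9.49 to 7.33, 7.62 and 7.70 in NS cells and from 9.0, 9.08 and 9.33 to 6.31, 6.78 and 6.56 in p300 siRNA cells (-1.91 and -2.59). Uqcrb changed by 0.07 and 0.33, Ctdsp1, a phosphatase of RNA polymerase II, by -0.50 and -0.93, Cyp3a9 by 0.60 and -0.11, and Tcp11l2 by 1.05 and 1.46. Of the largest falls, Rrad changed by -2.58 and -3.36, a difference with unadjusted p = 0.00102 and adjusted p = 0.923. Whether lists differed between the 2 kinds of cells was not tested; in NS and in p300 siRNA cells the median change of oxidative phosphorylation subunits was 0.22 and 0.32, of cytosolic ribosomal proteins 0.15 and 0.20, of zinc finger genes -0.37 and -0.41 and of FOXO genes -0.43 and -0.46.

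**Figure D5:**
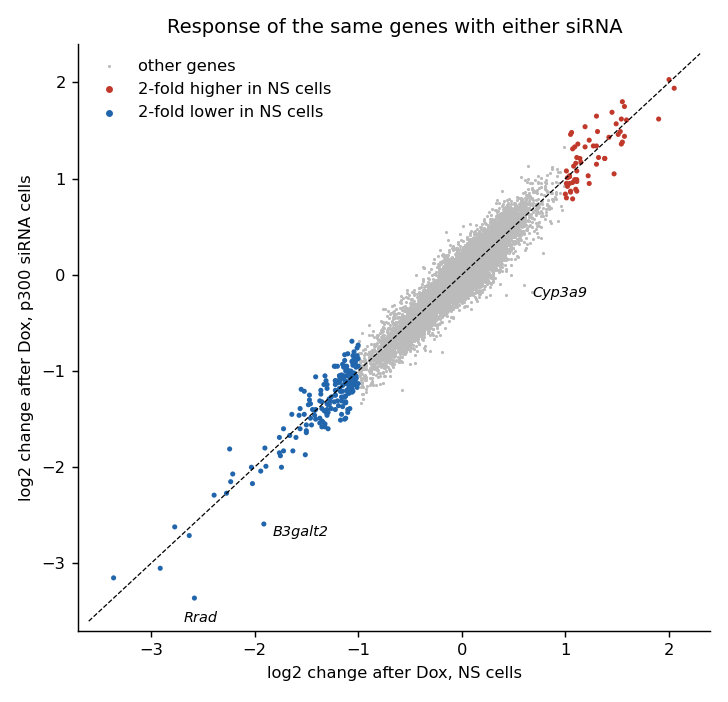
Log2 change after 8 h of Dox in NS cells (horizontal axis) and in p300 siRNA cells (vertical axis), 1 point per gene, with the line of equal change dashed; red and blue points changed at least 2-fold in NS cells. The 255 coloured points keep their sign on the vertical axis, and Rrad (-2.58 and -3.36) and B3galt2 (-1.91 and -2.59) lie below the line.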

How the data were processed

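Per the labels, total RNA of 12 cultures was labelled and hybridised to Affymetrix whole-transcript arrays, in 4 groups of 3. The authors deposited 1 linear intensity for each probe set (8.05 to 25315), made with Affymetrix Expression Console 1.1 and RMA, per the submitters' processing notes; how they became linear is not given in the sources used here. RMA makes the distributions of all arrays alike, so changes are relative to each array, and log2 was taken here. Median log2 intensity was 7.73 to 7.80 on the 12 arrays. The number of arrays limits the precision.

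Of 29214 probe sets, 15310 had 1 gene symbol in the platform annotation, 323 several and 13581 none. The brightest probe set was kept for 527 genes with more than 1, and only probe sets with 1 symbol were used, giving 14506 genes; 14480 matched RefSeq GRCr8 by Entrez identifier, which updated symbols. RefSeq also gave 11950 promoters; where a gene had several starts (448 genes) the first listed was used.

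One limma model (version 3.58.1, R 4.3.3; lmFit, eBayes with a trend) covered all 12 arrays, with 4 group means and the replicate number as a block (6 residual degrees of freedom), two-sided, with Benjamini-Hochberg adjustment over 14506 genes; called means adjusted p under 0.05. The script was tested on simulated data. The labels say biological replicates and the series text 3 experiments. Pairing was checked on deviations from group means: 18 pairs that shared a number across groups correlated at 0.172 to 0.689, with a median of 0.504. The 36 other pairs correlated at -0.589 to 0.354, with a median of -0.271. Deviations within a group sum to 0, so that negative median is no separate support.

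The comparison, its 40 gene lists (1 is not reported here) and 7 marker lists were chosen with earlier results of these data known, and 11 further lists, such as single complexes and solute carriers, after values were seen. Named were the 25 largest rises and falls among called genes without overlap of groups and with the higher mean above the median level (8.574), up to 4 called members of a list per direction, up to 2 members not called, the markers, Ep300, the 5 smallest p for the difference of responses, and genes beside the threshold; fewer were printed. Beside the threshold lay Tnks2 and Mchr1, just inside (adjusted p = 0.0499 and 0.0500), and Etv5 and Tubb2a, just outside (0.0500 each after rounding). The 17 alternatives changed the block, the samples, the scaling, the filter, the trend or the probe set rule.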

Additional observations from a re-analysis of the deposited data

Results flagged for a closer look

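Probe sets without exactly 1 gene symbol, 13904 of 29214, entered no comparison above. Tested in the same way together with the others, with limma, 1813 of them were called higher and 1419 lower after 8 h of Dox in NS cells (23.2% in all). They were picked out because 131 changed at least 2-fold, 35 higher and 96 lower, with a largest rise of 1.66 and a largest fall of -3.02. What these probe sets measure was not examined. In the 216 genes with more than 1 called probe set, 0 had called probe sets that disagreed in direction.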

How the results depend on the processing

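Of 255 genes called at least 2-fold, 254 stayed called in all 17 alternative settings, and of 336 named genes that were called, 265 did. The counts of small changes were less firm. Without the replicate block, so without the pairing by experiment, 1617 genes were higher, against 3133 with it, and of the 3992 genes then called 3990 had been called in the same direction with the block. Arrays centred on the genes tested gave 5430 higher, with 5592 of 7889 calls shared in direction, and turned Actc1, not called and at 0.00, to 0.10. Leaving out single arrays or experiments gave 2205 to 2832 genes higher, 2419 to 3120 lower, 46 to 66 at least 2-fold higher and 178 to 231 at least 2-fold lower. The count of genes whose response differed between NS and p300 siRNA cells was 0 in each setting. List counts, not given for each setting, moved by over 1.5 times in some, those of 1 to 3 members among them. Without the block 2 genes of complex III, 7 of complex IV and 5 of complex V rose. Zinc finger rises, 7 in the main fit, were 13 with arrays centred on the genes tested and 4 without the block. In each of these 2 settings 2 endothelial markers fell, against 4 in the main fit. Other settings kept the counts of all genes within 1.5 times. Centring on the genes tested moved every change up by the same amount, so its list counts all share 1 shift. Why counts moved in the other settings was not tested. With 3 arrays a group, changes near the median SE of 0.0785 are not measurable.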
